A study of Rattus norvegicus with 12 samples.

Results

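The genes described here are 10 genes of purinergic signalling, the signalling by ATP and adenosine outside cells, among the 17494 genes counted in the hippocampus of blast-exposed rats. They were taken by symbol from a list of 2 ATP-gated channels (P2rx4 and P2rx7), 2 P2Y nucleotide receptors (P2ry1 and P2ry14), 2 adenosine receptors (Adora1 and Adora2a), 3 ectoenzymes (Entpd1, Entpd2 and Nt5e) and adenosine kinase (Adk). All 10 were in the table, and all 10 passed the filter on low counts. None passed a test of the difference between rats fed boldine and rats fed chow without it. Adora1, Entpd2 and P2rx7 differed more between 2 sets of libraries, drawn from the library names and the first principal component, than between treatments. That holds for genes at large, since the sets were chosen on that component. Without rat 6 the median size of the set difference in log2 was 0.32 for the 10 genes and 0.47 for all genes. Between treatments, with the set as a covariate, it was 0.09 and 0.08.

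ATP leaves brain cells through hemichannels, vesicles and damaged membranes and acts on P2X channels and P2Y receptors of neurons and glia. Ectoenzymes of the Entpd family cut ATP and ADP to AMP, and the 5'-nucleotidase Nt5e cuts AMP to adenosine, which acts on adenosine receptors and is cleared through transporters and adenosine kinase. Boldine, an alkaloid of the boldo tree, is known as a blocker of connexin and pannexin hemichannels.

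All 12 rats were wild-type male Long Evans hooded rats exposed to 3 low-level blasts, 1 per day, at 10 weeks of age and sacrificed 29 weeks after blast. The 6 blast-boldine rats were given boldine in their chow at 500 mg/kg, for a target of 25 mg/kg per day, and the 6 blast-control rats the same chow lacking it. Treatment began in the weeks after the blasts and lasted until sacrifice. No sham-exposed library and no library of an unexposed rat fed boldine was analysed here, so every comparison is between blast-exposed rats. Each library came from 1 rat, which the study took as the experimental unit.

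In 11 rats the gene counts summed to between 10148474 and 40850106, and in blast-control rat 6 to 74008. A single count stood for 15.8 CPM (counts scaled to the library total and by TMM normalization) in rat 6, and for no more than 0.102 CPM elsewhere. Rat 6 held 3 counts of Entpd1, 2 of Adk, 1 of P2rx7 and none of the other 7 genes. At the mean CPM of the other blast-control rats its depth would have given 4.72 counts of Adk, 4.28 of Adora1 and under 2.3 of each of the others, so a count of 0 there sets no useful limit. Blast-control CPM values of single genes are therefore given without rat 6 in the paragraphs on each gene. Fold changes there are given with it, each beside a fit or permutation without it.

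The library names end in suffixes 1 to 6, each used on 2 libraries, and the labels do not say what a suffix stands for. There are 4 ways to divide the rats into 2 sets if each set holds every suffix and its rat numbers go up with the suffix, a rule chosen here and not given by the labels. Of these, the division into rats 1, 7, 9, 20, 32 and 35 (set A) and rats 4, 5, 6, 12, 17 and 19 (set B) accounted for 95.1% of the first principal component of the 11 deeper libraries, which held 66% of their variance. Each set holds 3 rats of each treatment, and treatment accounted for 1.53% of that component. The division was chosen from the data, so differences between the sets are described without a test. In set B the component score of rat 4 was -22.1, against -57.3 to -45.2 in the other 4 scored rats and 28.6 to 43.8 in set A.

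The tissue is brain in the sample labels and hippocampus in the study's methods. The hippocampal neuron markers Prox1, Fibcd1, Neurod2 and Neurod6 were present in all 11 rats, at sums of 531 to 725 CPM. The 6 markers of striatal neurons, which are known for a high level of Adora2a, summed to 201 to 276 CPM. They ran from Drd2 at 1.02 to 3.46 CPM and Drd1 at 8.03 to 20.2 CPM to Ppp1r1b at 87 to 126 CPM and Pde10a at 81.5 to 133 CPM. The part of such cells in the Adora2a level was not tested. The 5 choroid plexus markers summed to between 8.69 and 1190 CPM, and the 2 blast-control and 3 blast-boldine rats with the highest sums lay between 656 and 1190 CPM. In bulk tissue, fewer cells of a type and less RNA per cell cannot be told apart.

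Per kilobase of exon, the measure used here to compare levels between genes, the adenosine receptor Adora1 and the kinase Adk were at the top. Over the 11 rats Adora1 was at 60.1 ± 21.2 CPM per kilobase (SD, n = 11) and Adk at 42.5 ± 5.27, and Adora1 lay above Adk in 8 of 11 rats. The Adora1 exons counted come to only 1074 bases in 2 intervals, the shortest of the 10 genes, and its level per length depends on that length. Entpd2 (14.2 ± 5.25), P2rx4 (12.7 ± 2.24), P2rx7 (9.81 ± 2.90), Entpd1 (6.89 ± 0.646) and Nt5e (6.81 ± 1.44) formed a middle group, in which neighbours overlapped in range. P2ry1 (1.14 ± 0.158), P2ry14 (0.740 ± 0.195) and Adora2a (0.730 ± 0.191) were lowest, all 3 below every other gene in every one of the 11 rats. P2ry14 and Adora2a could not be put in order, since P2ry14 was the higher in 6 of 11 rats.

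**Figure D1:**
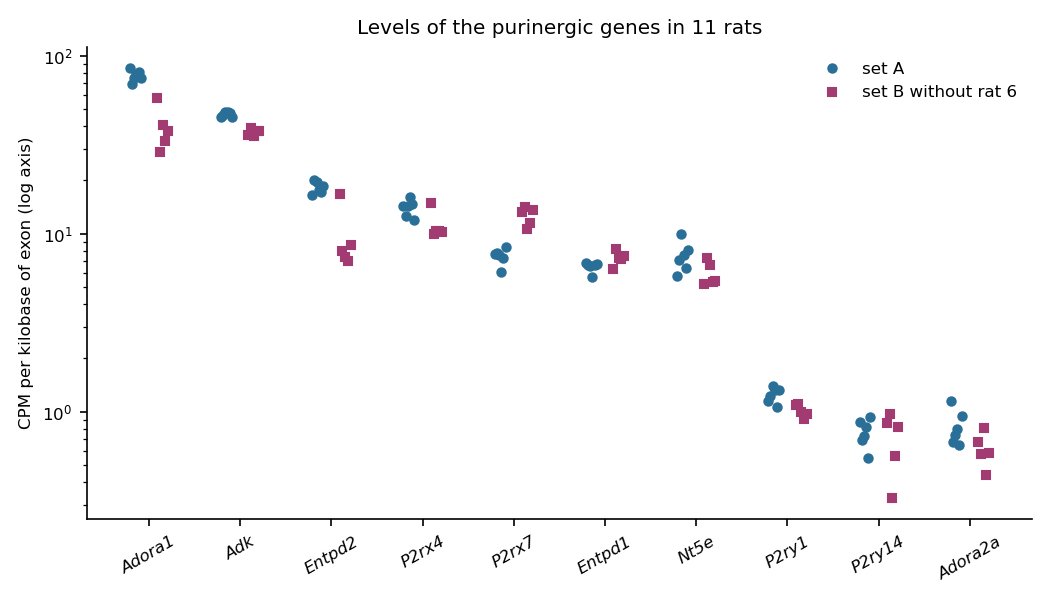
Level of each gene in CPM per kilobase of exon (log axis), 1 point per rat, with set A as circles and set B without rat 6 as squares. The points of P2ry1, P2ry14 and Adora2a lie under 1.4 CPM per kilobase in every rat and those of every other gene above 5.

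The order in the middle group differed by set. In set A it ran Entpd2 (18.1 ± 1.37 CPM per kilobase, SD, n = 6), P2rx4 (14 ± 1.51), Nt5e (7.50 ± 1.47), P2rx7 (7.48 ± 0.787) and Entpd1 (6.54 ± 0.410). In set B without rat 6 it ran P2rx7 (12.6 ± 1.5, n = 5), P2rx4 (11.2 ± 2.08), Entpd2 (9.54 ± 4.01), Entpd1 (7.32 ± 0.646) and Nt5e (5.99 ± 0.948). Entpd2 thus lay above P2rx4 in 6 of 6 rats of set A, and P2rx4 above Entpd2 in 4 of 5 rats of set B.

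Whether boldine changed these genes was tested in edgeR across all 12 rats. None of the 10 genes had an adjusted p under 0.05 (edgeR's quasi-likelihood test, Benjamini-Hochberg adjustment over 12325 genes), where 0% of all genes tested did. At an unadjusted p under 0.05 the counts were 0 of 10 for these genes and 1.07% of all genes. Without rat 6 they were 0 of 10 and 1.40%, with the set as a covariate and without rat 6 they were 0 of 10 and 5.35%, and without rat 4 as well they were 0 of 10 and 6.51%. The 2 treatments overlapped in all 10 genes without rat 6, and 0.136% of all genes had treatments that did not overlap.

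**Figure D2:**
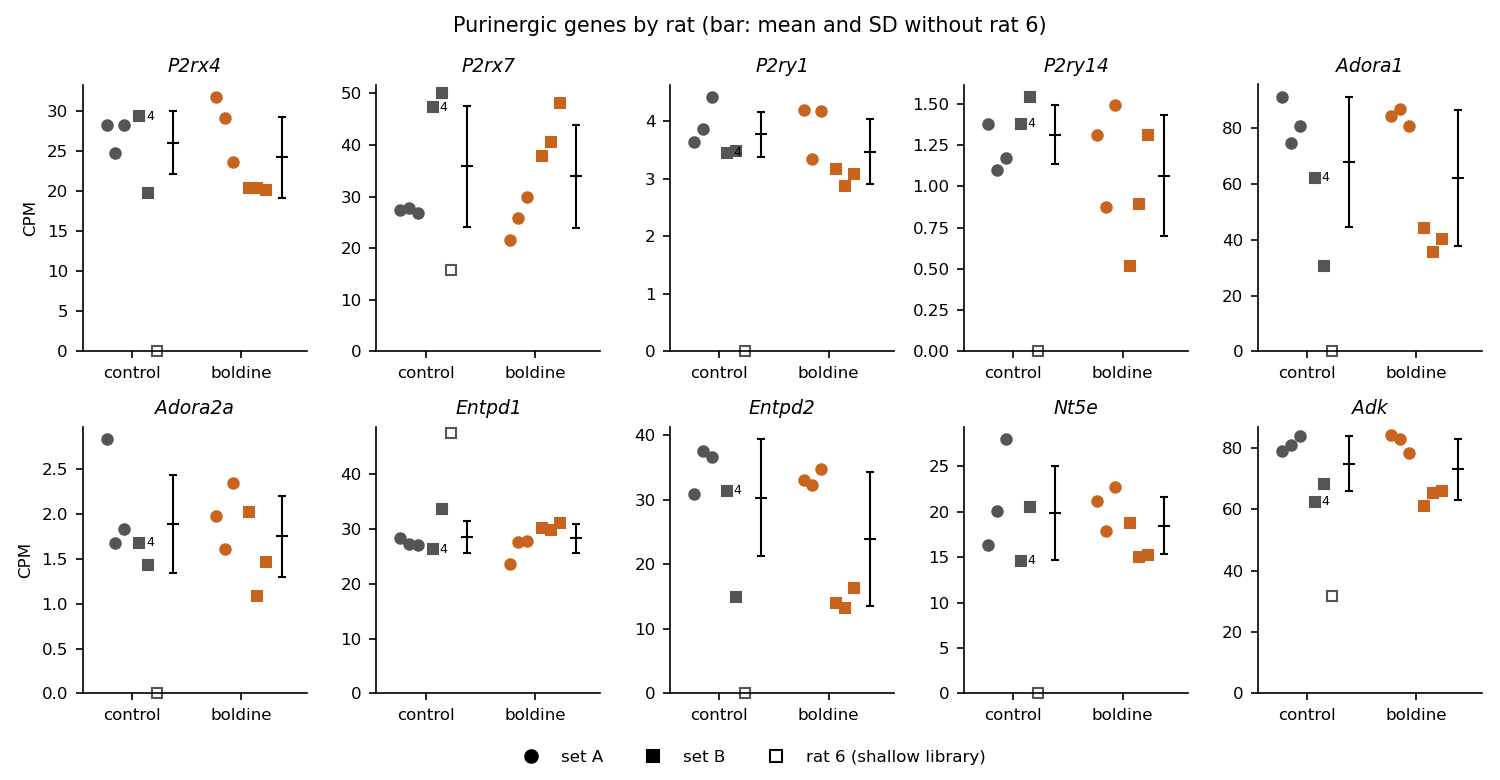
CPM of the 10 genes in each of the 12 rats (linear axes from 0), by treatment, with set A as circles, set B as squares and the shallow library of rat 6 as open squares, and rat 4 marked; bars give the mean and SD without rat 6. Blast-control and blast-boldine points overlap in every panel, while circles and filled squares part in P2rx7, Adora1 and Adk.

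Of the ATP-gated channels, P2rx4 is carried by microglia and neurons and P2rx7 is known for its part in inflammasome activation. P2rx4 (chromosome 12 of mRatBN7.2, 33844612 to 33862265) and P2rx7 (33890989 to 33934101) lie 28723 bases apart on the same strand. In set A, P2rx4 measured 28.2, 24.7 and 28.2 CPM in blast-control rats 1, 7 and 9 and 31.7, 29.1 and 23.6 CPM in blast-boldine rats 20, 32 and 35. In set B it measured 29.3 and 19.8 CPM in blast-control rats 4 and 5 and 20.4, 20.4 and 20.1 CPM in blast-boldine rats 12, 17 and 19. Rat 4 stood at the level of set A, and the other 4 rats of set B lay between 19.8 and 20.4 CPM. Its log2 fold change (boldine over control) was -0.06 (SE 0.21, 95% interval -0.51 to 0.39, adjusted p = 1 in edgeR with all 12 rats). It was -0.09 (SE 0.12) with the set as a covariate and without rat 6, and 0.05 (SE 0.09) without rat 4 as well.

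P2rx7 had a higher level in set B. In set A it measured 27.4, 27.7 and 26.8 CPM in blast-control rats 1, 7 and 9 and 21.5, 25.9 and 29.9 CPM in blast-boldine rats 20, 32 and 35. In set B it measured 47.3 and 50 CPM in blast-control rats 4 and 5 and 37.8, 40.5 and 48.2 CPM in blast-boldine rats 12, 17 and 19. The sets did not overlap, and inside each set the treatments did. Its log2 fold change was -0.05 (SE 0.25, 95% interval -0.58 to 0.49, adjusted p = 1 in edgeR), and with the set as a covariate and without rat 6 it was -0.14 (SE 0.10, interval -0.35 to 0.06).

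The P2Y receptors were read from few counts, 29 to 166 of P2ry1 and 9 to 63 of P2ry14 in each of the 11 rats. P2ry1 (chromosome 2, 145242008 to 145247505), the ADP receptor that raises calcium in astrocytes, ranged from 2.87 to 4.19 CPM with a median of 3.26 in blast-boldine rats. In blast-control rats without rat 6 it measured 3.64, 3.45, 3.48, 3.87 and 4.42 CPM (rats 1, 4, 5, 7 and 9). The ranges overlapped. In set B the blast-boldine values were 2.87 to 3.18 CPM and the blast-control values 3.45 and 3.48 CPM. For P2ry1 the log2 fold change was -0.10 (SE 0.17, 95% interval -0.47 to 0.27, adjusted p = 1 in edgeR). Permuting treatments within sets without rat 6 gave the pooled difference, which holds part of the set difference, an exact two-sided p of 0.12 over 200 assignments.

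P2ry14 (chromosome 2, 143372701 to 143374349), a receptor for UDP-sugars, measured 1.38, 1.38, 1.54, 1.10 and 1.17 CPM in blast-control rats 1, 4, 5, 7 and 9. In blast-boldine rats it ranged from 0.520 to 1.49 CPM with a median of 1.10. The lowest values, 0.520, 0.872 and 0.892 CPM, were those of blast-boldine rats 12, 32 and 17, and they rest on 9, 19 and 9 counts. For P2ry14 the log2 fold change was -0.28 (SE 0.25, 95% interval -0.83 to 0.26, adjusted p = 1 in edgeR), and without rat 6 the exact two-sided permutation p was 0.182 over 462 assignments. Leaving out blast-boldine rat 12 moved the fold change of P2ry14 to -0.14, and leaving out blast-boldine rat 35 gave -0.41.

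Adora1 (chromosome 13, 45662488 to 45694802), the inhibitory adenosine receptor of hippocampal synapses, separated the sets. In set A it measured 90.9, 74.5 and 80.5 CPM in blast-control rats 1, 7 and 9 and 84.2, 86.8 and 80.8 CPM in blast-boldine rats 20, 32 and 35. In set B it measured 62.2 and 30.7 CPM in blast-control rats 4 and 5 and 44.1, 35.6 and 40.2 CPM in blast-boldine rats 12, 17 and 19. Rat 4 was again nearest to set A, and blast-boldine rats of set B lay between the 2 blast-control rats. For Adora1 the log2 fold change was -0.05 (SE 0.35, 95% interval -0.81 to 0.71, adjusted p = 1 in edgeR). With the set as a covariate and without rat 6 the interval narrowed to -0.38 to 0.23 around -0.08, and without rat 4 as well the value was 0.13 (SE 0.09, interval -0.07 to 0.33).

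Adora2a (chromosome 20, 13315853 to 13333386), the stimulatory receptor abundant in striatum, was near the low end of detection, with 11 to 129 counts in each of the 11 rats. It measured 2.83, 1.68, 1.43, 1.68 and 1.83 CPM in blast-control rats 1, 4, 5, 7 and 9, and from 1.09 to 2.34 CPM with a median of 1.80 in blast-boldine rats. The highest value was that of rat 1, the deepest library, and the blast-boldine values other than the lowest, 1.09 CPM, lay inside the blast-control range. Adora2a had a log2 fold change of -0.12 (SE 0.24, 95% interval -0.63 to 0.39, adjusted p = 1 in edgeR). Without rat 6 it was -0.13 (SE 0.24).

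Of the ectoenzymes, Entpd2 had the lowest fold change in edgeR with all 12 rats. Entpd2 (chromosome 3, 8213673 to 8219094) prefers ATP over ADP and is known from astrocytes and progenitor cells. In set A it measured 30.9, 37.6 and 36.6 CPM in blast-control rats 1, 7 and 9 and 33.0, 32.3 and 34.8 CPM in blast-boldine rats 20, 32 and 35. In set B it measured 31.4 and 15 CPM in blast-control rats 4 and 5 and 14, 13.3 and 16.3 CPM in blast-boldine rats 12, 17 and 19. Rat 4 alone of set B was at the level of set A, and rat 5 and the 3 blast-boldine rats lay together between 13.3 and 16.3 CPM.

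The log2 fold change of Entpd2 was -0.29 (SE 0.33, 95% interval -1.01 to 0.43, adjusted p = 1 in edgeR). Leaving out blast-boldine rat 12 or rat 17 gave -0.18, leaving out blast-control rat 7 gave -0.19, and leaving out blast-control rat 5 gave -0.45. The exact two-sided permutation within sets without rat 6 gave p = 0.08 for the pooled difference, which holds part of the set difference. With the set as a covariate and without rat 6 the fold change was -0.33 (SE 0.17, interval -0.69 to 0.03, adjusted p = 0.898 in edgeR). Leaving out rat 4 as well moved it to -0.06 (SE 0.09, interval -0.25 to 0.13). The difference of the treatment effect between the sets (set B minus set A) was -0.59 (SE 0.31, adjusted p = 0.883 in edgeR).

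Entpd1 (chromosome 1, 239473442 to 239552317), the CD39 of microglia and vessels, was among the steadiest of the genes. It measured 28.3, 26.3, 33.7, 27.3 and 27.1 CPM in blast-control rats 1, 4, 5, 7 and 9 and ranged from 23.6 to 31.0 CPM with a median of 28.8 in blast-boldine rats. Rat 5 was highest and rat 20 lowest, and the groups overlapped. Between treatments the log2 fold change of Entpd1 was -0.04 (SE 0.13, 95% interval -0.33 to 0.25, adjusted p = 1 in edgeR), and the interval with the set as a covariate and without rat 6 was -0.22 to 0.15.

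Nt5e (chromosome 8, 89271046 to 89314895), the CD73 that completes the path from ATP to adenosine, measured 16.3, 14.6, 20.5, 20.1 and 28.0 CPM in blast-control rats 1, 4, 5, 7 and 9. In blast-boldine rats it ranged from 15 to 22.7 CPM with a median of 18.3, inside the blast-control range. Between treatments the log2 fold change of Nt5e was -0.07 (SE 0.22, 95% interval -0.54 to 0.39, adjusted p = 1 in edgeR). Without rat 6 it was -0.11 (SE 0.18).

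Adk (chromosome 15, 2863241 to 3246453), the kinase of astrocytes that returns adenosine to AMP, had the narrowest interval of the 10 genes once the set was a covariate and rat 6 was left out. In set A it measured 78.8, 80.9 and 83.7 CPM in blast-control rats 1, 7 and 9 and 84.3, 82.7 and 78.4 CPM in blast-boldine rats 20, 32 and 35. In set B it measured 62.5 and 68.3 CPM in blast-control rats 4 and 5 and 61.2, 65.2 and 65.9 CPM in blast-boldine rats 12, 17 and 19. The sets did not overlap and the treatments did in each set. Between treatments the log2 fold change of Adk was 0.01 (SE 0.16, 95% interval -0.33 to 0.35, adjusted p = 1 in edgeR), and with the set as a covariate and without rat 6 the interval was -0.14 to 0.12.

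**Figure D3:**
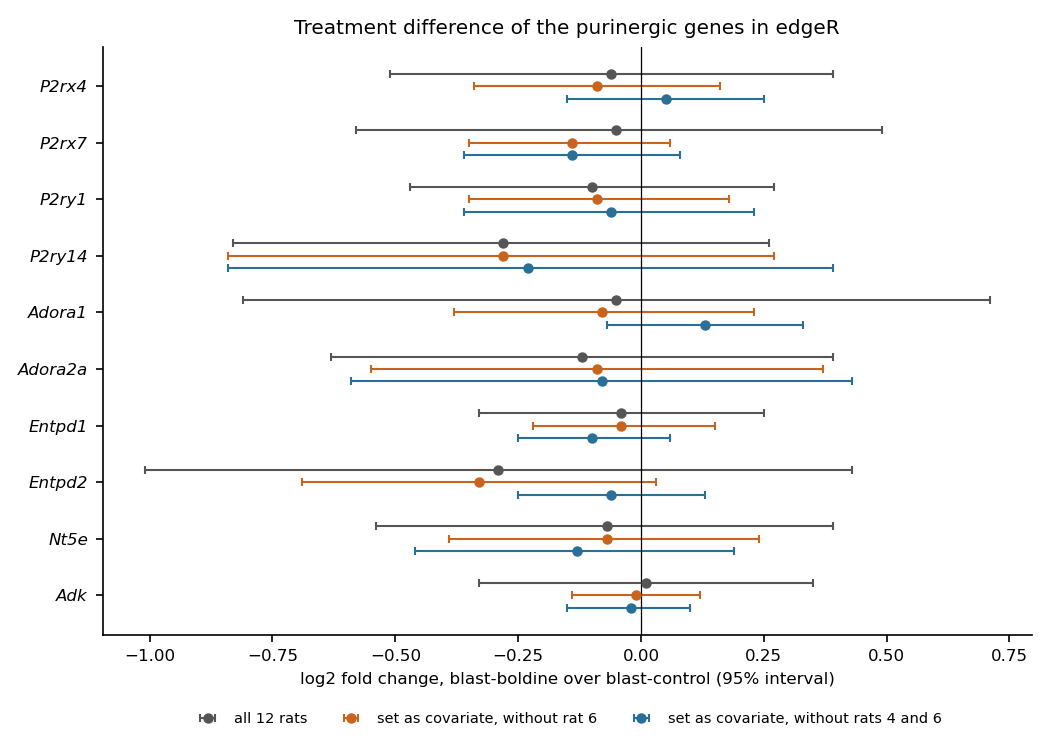
Log2 fold change of each gene, blast-boldine over blast-control, with its 95% interval, in edgeR with all 12 rats (grey), with the set as a covariate and without rat 6 (orange), and without rats 4 and 6 (blue). All 30 intervals include 0, and Entpd2 moves from -0.33 to -0.06 when rat 4 is left out.

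Read together, 9 of the 10 fold changes were below 0 with all 12 rats, where 48.7% of all genes were, and the median was -0.07 against 0.00 for all genes. With the set as a covariate and without rat 6, 10 of 10 were below 0, where 52.6% of all genes were, and the median was -0.09 against -0.01. Without rat 4 as well, 8 of 10 were below 0, where 49.4% of all genes were. The genes share the same 12 libraries and are not independent, every 95% interval included 0, and the median size without regard to sign was 0.09 against 0.08 for all genes. With treatments permuted over the 11 rats irrespective of set, the exact two-sided p ran from 0.182 (P2ry14) to 0.879 (Entpd1). Permuted within sets, also without rat 6, it ran from 0.08 (Entpd2) to 0.88 (Entpd1), all before any adjustment. The statistic was the pooled difference, with its size taken from 0. Without rat 6 the blast-control rats number 3 in set A and 2 in set B, so part of the set difference enters that statistic.

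Between the sets several of the same genes differed by more. The mean log2 CPM of set A minus set B, without rat 6, was 0.99 for Adora1 and 0.99 for Entpd2, a ratio of 1.98 for each, and -0.76 for P2rx7, a ratio of 0.589. The neighbour of P2rx7, P2rx4, had a difference of 0.32, the opposite sign. Adk differed by 0.32, Adora2a by 0.38, Nt5e by 0.30, P2ry1 by 0.27, P2ry14 by 0.16 and Entpd1 by -0.17.

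The sets did not overlap in 3 of the 10 genes (P2rx7, Adora1 and Adk), where they did not in 48.8% of all genes. Without rat 4 they did not overlap in 6 of 10, with P2rx4, Entpd1 and Entpd2 added, and in 60.0% of all genes. The median size of the set difference was 0.32 for these genes and 0.47 for all genes, and all 10 lay between the 5th and 95th percentile of all genes (-1.31 to 1.14).

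**Figure D4:**
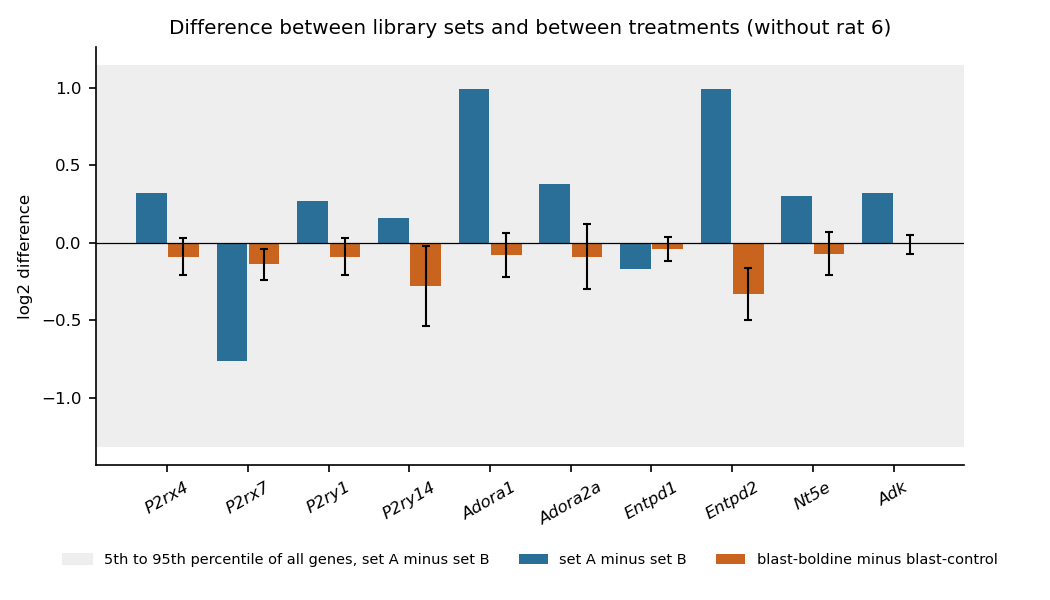
For each gene, the difference in mean log2 CPM between set A and set B (blue) and the log2 fold change between treatments with the set as a covariate (orange, with SE), both without rat 6, over the range from the 5th to the 95th percentile of the set difference of all genes (grey). Adora1 and Entpd2 reach 0.99 and P2rx7 -0.76 between sets, and no treatment difference is beyond -0.33.

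Summed levels of some cell type marker lists also differed between the sets. Sums of astrocyte, neuron, oligodendrocyte, mural, striatal, choroid plexus and hippocampal markers overlapped without rat 6, but single markers of these lists did not always overlap. Markers in a list could go opposite ways. The astrocyte marker Sox9 was at 36.3 to 51.9 CPM in set A and 172 to 203 CPM in set B. Aldh1l1 was at 58.9 to 64.8 CPM in set A and 37.8 to 45.1 CPM in set B. The neuron markers Rbfox3 (79.4 to 123 CPM in set A, 181 to 232 in set B) and Syt1 (555 to 748 and 1120 to 1390) were higher in set B. So were the hippocampal markers Prox1 (89.7 to 112 and 165 to 215) and Neurod2 (45.9 to 68.8 and 127 to 145). The other markers of both lists overlapped between the sets. The 3 oligodendrocyte precursor markers summed to 331 to 366 CPM in set A and 271 to 324 CPM in set B. The 8 microglial markers summed to 420 to 433 CPM in set A and to 178 to 275 CPM in set B without rat 6, with no marker at 0. The 5 endothelial markers summed to 93.3 to 139 CPM in set A and to 212 to 287 CPM in set B. P2rx7 was higher in set B, the set with the lower microglial sum and the higher endothelial sum, and Entpd1 overlapped between sets. In rat 4 the microglial sum was 275 CPM, the highest of set B, and the endothelial sum was 212 CPM, the lowest. Between treatments the microglial sums overlapped (196 to 433 CPM in blast-boldine rats and 178 to 431 CPM in blast-control rats without rat 6). The part of these markers in the set differences of the purinergic genes was not tested.

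The wider pathway was described from a list of 46 other genes of purinergic signalling, of which 45 were found by symbol and 38 passed the filter; Nt5c2 was not analysed here. With all 12 rats, 0 of 38 had an unadjusted p under 0.05, where 1.07% of all genes did. Of the 38, 21 had fold changes below 0, where 48.7% of all genes did. With the set as a covariate and without rat 6, 3 of 38 (7.89%, against the 5.35% of all genes) had an unadjusted p under 0.05, and none had an adjusted p under 0.05. In that fit 4 of 5 other P2X channels tested had fold changes above 0. Of the other P2Y receptors 4 of 5 were below 0, where 52.6% of all genes were. No gene of either family had an unadjusted p under 0.05, and 5 genes are too few to give a family a direction. The fourth adenosine receptor, Adora3, had no count in any of the 11 rats, which allows up to 0.0658 to 0.307 CPM by rat (3 counts, counting error only), and Adora2b was at 1.94 to 8.75 CPM.

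The 3 genes were Slc29a2, Pnp and Gjb2. Slc29a2, the equilibrative nucleoside transporter ENT2, was lower in blast-boldine rats, at -0.33 in log2 fold change with an SE of 0.12 (set as a covariate, without rat 6, adjusted p = 0.898 by edgeR). In set B it measured 9.28 and 7.98 CPM in blast-control rats 4 and 5 and 5.95, 4.96 and 6.23 CPM in blast-boldine rats 12, 17 and 19. In set A it measured 9.92, 10.4 and 10 CPM in blast-control rats 1, 7 and 9 and 9.65, 9.55 and 8.31 CPM in blast-boldine rats 20, 32 and 35. The gene was picked by its unadjusted p in this fit, so these values add no separate evidence.

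Pnp, the purine nucleoside phosphorylase that acts on inosine after deamination of adenosine, gave a log2 value of 0.20 with an SE of 0.07 in the same fit (adjusted p = 0.898 by edgeR). Its blast-boldine values were 142, 127 and 124 CPM in set B against 104 and 105 CPM, and 106, 97.9 and 102 CPM in set A against 86.7 and 93.8 CPM in rats 1 and 9, and the value of rat 7 lay among those of blast-boldine rats. Gjb2, the connexin 26 of hemichannels, gave 0.29 with an SE of 0.12 (adjusted p = 0.898 by edgeR). In set B it measured 9.47 and 9.42 CPM in blast-control and 12.1, 14.4 and 10.6 CPM in blast-boldine rats. In set A it measured 16.4, 19.6 and 15.4 CPM in blast-control and 17.2, 23.5 and 19.7 CPM in blast-boldine rats, and the treatments overlapped. Pnp and Gjb2 were also picked by their unadjusted p in this fit, so their values add no separate evidence. The hemichannel gene Panx1 had a log2 fold change of 0.00 (SE 0.09), and Gja1, the astrocytic connexin 43, one of -0.14 (SE 0.19).

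**Figure D5:**
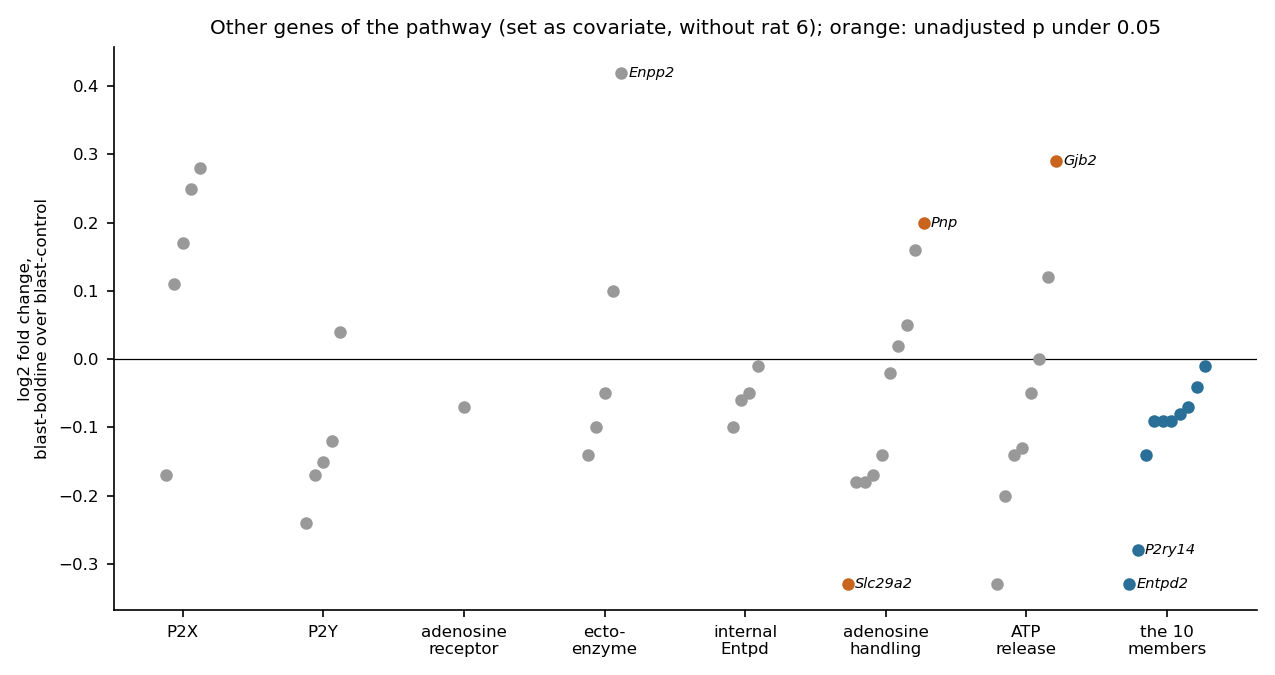
Log2 fold change, blast-boldine over blast-control, of the 38 other pathway genes tested, grouped by role, and of the 10 genes described here (blue), in edgeR with the set as a covariate and without rat 6. Orange points (Slc29a2, Pnp and Gjb2) had an unadjusted p under 0.05, and Entpd2 and P2ry14 are the lowest of the 10.

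Enpp2, which makes lysophosphatidic acid and is abundant in choroid plexus, had the highest fold change of the pathway list, 0.42 (SE 0.68), and was picked out after its values were seen. It ranged from 130 to 1260 CPM over the 11 rats. The highest values, 1260, 801, 745, 678 and 481 CPM, were those of rats 7, 12, 32, 17 and 1, which were also the 5 rats with choroid plexus marker sums of 656 to 1190 CPM, and in the other 6 rats both were lower. The part of choroid plexus tissue in the Enpp2 values was not tested.

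For 3 of the genes, the most abundant per length of their role, the genes with the most similar pattern were sought by the Pearson correlation of log2 CPM centred within set and treatment over 11 rats, among 12528 genes. For P2rx4 they were Plppr1 (r = 0.984) and Nrxn2 (r = 0.973), for Adora1 they were Tmem259 (r = 0.987) and Amigo1 (r = 0.983), and for Adk they were Stk32b (r = 0.958) and Egr2 (r = 0.930). Without rats 4 and 5, the only blast-control rats of set B left, the values of the same pairs were 0.964 and 0.939, 0.928 and 0.917, and 0.929 and 0.884 over 9 rats. These are the highest of many correlations over libraries that share composition and are given as a description.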

How the data were processed

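Hippocampal total RNA, depleted of ribosomal RNA, was sequenced as stranded libraries from 12 rats, 1 library each. The authors removed duplicates with HTStream, aligned reads to mRatBN7.2 with STAR 2.7.11b and counted exon reads by gene name and strand with featureCounts (Subread 2.0.1), and the deposited values are these raw counts. The counting command in the paper names no option to count reads with several alignments. The bearing of this on genes with similar copies was not tested, and no member shared exon bases with another gene. The members and gene lists were chosen with earlier results of these data known. Named are all members, pathway genes with an unadjusted p under 0.05 in the 2 edgeR fits described, and for the most abundant gene of 3 roles the 2 most correlated genes. Enpp2, Panx1, Gja1, Adora2b, Adora3, Sox9 and Aldh1l1 were named outside this rule, after their values were seen. The same holds for the single values of Drd1, Drd2, Ppp1r1b, Pde10a, Rbfox3, Syt1, Prox1 and Neurod2.

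Tests used edgeR 4.0.16 in R 4.3.3 (quasi-likelihood, TMM, filterByExpr with a minimum of 10 counts, treatment as the only term, two-sided, Benjamini-Hochberg adjustment), where edgeR raises a p that is under its Poisson bound; SE and 95% intervals come from the F statistic. Log2 CPM used a prior count of 2. Exact permutation tests of the difference in mean log2 CPM covered 924 assignments of the 12 rats, 400 within sets, and 462 and 200 without rat 6. Within sets the statistic stayed the pooled difference, which holds part of the set difference once rat 6 is left out. A floor of 3 counts, which covers counting error only, stands for 47.5 CPM in rat 6 and for 0.0658 to 0.307 CPM in the 11 others. Alternatives were DESeq2 1.42.0, limma-voom (limma 3.58.1), other size factors and filters, a robust fit, set or suffix covariates, 1 surrogate variable (sva 3.50.0), removal of the 10 most abundant genes and leaving out each rat. Leaving out rats 4 and 6 together, and the treatment effect by set, were added after seeing the data. Permutation tests ran in Python 3.11.15 (numpy 2.4.6, scipy 1.17.1, pandas 2.3.3), and figures were drawn with matplotlib 3.10.9. The statistics were tested on simulated data.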

Additional observations from a re-analysis of the deposited data

Results flagged for a closer look

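Of 30 groups of values of the 10 genes (blast-boldine rats, blast-control rats, and blast-control rats without rat 6), 6 held a rat far from the others by Dixon's criterion at 95%, which chance alone meets in about 1 of 20 groups. The groups with and without rat 6 share rats, so the 6 cannot be set against that rate. Among blast-control rats, rat 6 stood apart with P2rx4 at 0 CPM, P2ry1 at 0 CPM, P2ry14 at 0 CPM and Entpd1 at 47.5 CPM, the last from 3 counts in a library of 74008. At the mean CPM of the other blast-control rats its depth would have given 1.64 counts of P2rx4, 0.238 of P2ry1 and 0.0829 of P2ry14. These values of 0 therefore set no useful limit. Without rat 6, rat 1 stood apart among blast-control rats in Adora2a with 2.83 CPM, and rat 5 in Entpd1 with 33.7 CPM.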

How the results depend on the processing

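Across 280 alternative fold changes, none of the 10 genes had an unadjusted p under 0.05, and the lowest was that of Entpd2 in DESeq2 with the set as a covariate and without rat 6. The fold changes ranged from -0.45 to 0.13 (log2), kept their sign in 247 of the 280 and turned in 33. The filter of 10 counts in every rat left none of the 10 genes to test. Rat 6 limits the depth, and the cause of the turned signs was not tested. Leaving out each rat in turn gave -0.17 to 0.11 for P2rx7, -0.21 to 0.10 for Adora1, -0.22 to 0.10 for Adora2a, -0.08 to 0.03 for Entpd1, -0.16 to 0.08 for Nt5e and -0.04 to 0.06 for Adk, and, with the sign kept, -0.41 to -0.14 for P2ry14, -0.45 to -0.18 for Entpd2, -0.15 to -0.01 for P2rx4 and -0.17 to -0.04 for P2ry1. Without rats 4 and 6 and with the set as a covariate, P2rx4 was at 0.05, Adora1 at 0.13 and Adk at -0.02. Adk was at -0.02 in DESeq2, -0.03 in limma-voom, -0.0043 with RLE and -0.01 with upper-quartile size factors, -0.00021 and -0.01 with 2 other suffix assignments, -0.04 with 1 surrogate variable, -0.01 with the set as a covariate and without rat 6 (also in DESeq2), and -0.04 in DESeq2 without rat 6.

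The difference in mean log2 CPM over all 12 rats, in which rat 6 enters with 0 counts for 7 of the genes, was above 0 for 9 genes. Without rat 6 the difference over the 11 rats, which is also the one set against permutations within sets, was -0.12 for P2rx4, -0.07 for P2rx7, -0.13 for P2ry1, -0.34 for P2ry14, -0.14 for Adora1, -0.11 for Adora2a, -0.40 for Entpd2, -0.09 for Nt5e and -0.04 for Adk. Inside the sets it was 0.04 (set A) and -0.24 (set B) for P2rx4, 0.03 and -0.13 for Adora1 and -0.11 and -0.21 for P2rx7.

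Pathway genes with an unadjusted p under 0.05 numbered 0 with all 12 rats, 3 with the set as a covariate, 3 without rat 6 as well, 3 without rats 4 and 6, 3 in DESeq2 with the set and without rat 6, 2 with 1 surrogate variable and 1 in DESeq2 without rat 6. Over all genes the number was 132. It was 85 in DESeq2, 254 without a filter, 5 with 10 counts in every rat, 474 with the set, 292 with 1 surrogate variable, 670 with the set and without rat 6, 279 in DESeq2 without rat 6, 736 in DESeq2 with the set and without rat 6, 820 without rats 4 and 6, and 85 to 214 on leaving out each rat. The smallest adjusted p over all genes was 1 with all 12 rats and 0.0677 at its lowest, in DESeq2 with the set and without rat 6. No paired analysis was possible because the rat numbers are not shared between treatments.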
